A study of Homo sapiens with 6 samples.

Results

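The genes described here encode the nuclear-encoded parts of the respiratory chain and the ATP synthase of mitochondria, together with factors that assemble them. They were chosen by name, from the symbols of the array's gene annotation (names beginning NDUF, SDHA to SDHD, UQCR, COX and a digit, or ATP5), leaving out pseudogenes and antisense names. This took 37 of the 14884 genes that the annotation named alone on a probe set. The probe set that was brightest in the mean of the 6 arrays stood for each gene. Of 41 matching names, 3 were left out as genes now or formerly named as antisense and 1 as a pseudogene. Complex IV made up most of the set with 23 genes, 17 of them subunits and 6 assembly factors. Complex III had 5 subunit genes, and complex V had 2 subunit genes and 1 inhibitor gene. Complexes I and II were present only through assembly factors, 2 and 4 of them, so the set stands in the main for complex IV rather than for the whole chain. The subunits of complexes I and II and the catalytic subunits of complex V were not analysed here.

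The cells were A549, a human line established from a lung adenocarcinoma, grown in DMEM with 10% FBS for 7 days in 2D culture on attachment plates. The LA717 group received LA717, an agar of low molecular weight used to disperse cells in liquid medium, at 0.03% (w/v), and the control group Milli-Q water. There were 3 arrays of total RNA per group, and the comparison asks what the agar alone does to transcription in cells that are attached. The labels speak of repeated collection and do not name separate cultures, so p-values measure the spread between these samples, which may be technical. In 1 label the LA717 arrays are said to come from low-attachment plates, whereas their titles, descriptions and treatment protocol give attachment plates. The epithelial genes KRT18, EPCAM, KRT19 and KRT8 had means of 6.16 or more (log2 intensity over 6 arrays), above the median of 3.19 of all probe sets. The KRT18 mean came from the brighter of 2 probe sets of that name, and which transcript it reads was not tested. The probe sets of 5 alveolar genes, surfactant genes among them, had means from 2.62 to 4.35, and those of the endothelial genes VWF and PECAM1 3.13 and 2.98. Of 4 leukocyte genes only LYZ was named on a probe set, with a mean of 3.42, above that median. Of 4 enzyme genes chosen for A549 and of 3 fibroblast genes, 0 were named on a probe set. Different probe sets have no common scale, so these means do not rank the markers, and which of them were expressed was not tested. Array medians lay between 3.19 and 3.23, pairs of arrays correlated with r from 0.9899 to 0.9913 over all probe sets, and the number of arrays limits the precision.

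Respiratory complexes I, III and IV pump protons across the inner mitochondrial membrane as electrons pass from NADH and succinate to oxygen, and complex V uses the resulting gradient to make ATP. Complex II links the chain to the citric acid cycle and pumps no protons. Several complex IV subunits come in paired isoforms, one in most tissues and the other in heart and muscle, lung or testis. Many genes of the chain are known targets of nuclear respiratory factor 1 (NRF1) and of the ETS factor GABP, also called nuclear respiratory factor 2.

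Promoters are shown first for the 3 members that held the core letters of both factors, so that their sequences can be read beside the expression values given further on. The 250 bases before the gene start were taken from RefSeq (GRCh38.p14) for the 31 of 37 members that matched by gene identifier, 39 windows in all. The letters searched on both strands were GCATGCGC for NRF1 and CCGGAAG for the ETS factor. GCATGCGC stood in 5 of 39 member windows (12.8%), against 2.63% of 35116 windows of all genes and 3.26% of those of protein-coding genes. CCGGAAG stood in 11 of 39 member windows (28.2%), against 8.52% of all windows and 10.7% of protein-coding ones. Such a match is a string of letters and not a shown binding site. SDHAF2, COX5B and COX6A1 held both, at differing positions and in differing numbers, and the capitals below mark every match of either string. In SDHAF2 the NRF1 letters, 96 bases before the gene start, share 1 base with an ETS match. COX6A2, the heart and muscle partner of COX6A1, is added for contrast and held neither string.

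SDHAF2, chr11:61429874-61430123, plus strand: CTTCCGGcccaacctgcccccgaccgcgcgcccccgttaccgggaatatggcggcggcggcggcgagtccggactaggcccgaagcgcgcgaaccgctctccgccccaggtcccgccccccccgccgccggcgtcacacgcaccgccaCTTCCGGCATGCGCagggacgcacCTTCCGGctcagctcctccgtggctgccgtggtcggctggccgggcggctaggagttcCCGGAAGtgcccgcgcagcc
COX5B, chr2:97645812-97646061, plus strand: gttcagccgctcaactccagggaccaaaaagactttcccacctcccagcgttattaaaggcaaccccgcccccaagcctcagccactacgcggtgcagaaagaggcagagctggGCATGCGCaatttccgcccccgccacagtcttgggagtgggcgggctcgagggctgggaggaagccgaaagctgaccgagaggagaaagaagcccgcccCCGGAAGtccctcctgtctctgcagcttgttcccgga
COX6A1, chr12:120437863-120438112, plus strand: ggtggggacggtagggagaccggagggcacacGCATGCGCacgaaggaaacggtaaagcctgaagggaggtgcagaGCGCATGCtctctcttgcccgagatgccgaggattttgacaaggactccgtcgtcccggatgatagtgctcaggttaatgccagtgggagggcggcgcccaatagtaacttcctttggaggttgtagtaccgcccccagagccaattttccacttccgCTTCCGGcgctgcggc
COX6A2, chr16:31428361-31428610, minus strand: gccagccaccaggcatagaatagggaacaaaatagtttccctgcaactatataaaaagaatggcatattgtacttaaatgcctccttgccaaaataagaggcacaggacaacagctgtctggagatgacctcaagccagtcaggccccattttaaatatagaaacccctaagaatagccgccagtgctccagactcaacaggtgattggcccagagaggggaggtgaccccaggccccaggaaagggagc

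The COX6A1 value below came from a probe set whose neighbours by number lay on chromosome 6, whereas the promoter is on chromosome 12. For the 5 members with GCATGCGC the differences between LA717 and control were 0.12 for SDHAF2, 0.04 for COX17, 0.02 for COX6A1, −0.14 for COX5B and −0.18 for COX18 (log2, LA717 minus control). Of these 5, 3 had a positive difference and the median was 0.0163. Of the 26 matched members without GCATGCGC, 19 did and the median was 0.0321. Of the 11 with CCGGAAG, 10 had a positive difference and the median was 0.0461. Of the 20 matched members without CCGGAAG, 12 did and the median was 0.0203. Both groups with a string had a positive median, below that of members without it for GCATGCGC and above for CCGGAAG. The groups of the 2 strings share members, and these contrasts were not tested. None of these differences passed the test that follows, and the 95% interval of each included 0.

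No change was called in any of the 37 genes, as in no other probe set of the arrays. With limma, 0 of 37 passed an adjusted p under 0.05, where 0% of all 53617 probe sets did (smallest adjusted p 0.485), so that this count says nothing particular to these genes, and the members' adjusted p ran from 0.92 to 0.997. At an unadjusted p under 0.05 there were 0 of 37 members, against 5.31% of all probe sets. The differences ran from −0.19 (COX7A1) to 0.17 (UQCRH and COX7A2L) on the log2 scale, with a median of 0.0265, where the median of all named genes was −0.0061. A positive difference was measured for 25 of 37 members, which is 67.6%, against 50.1% of all probe sets and 47.9% of named genes. For 37 of 37 members the 95% interval of the difference lay within 1.5-fold in either direction, which held for 84% of all probe sets and 91.6% of named genes. These intervals bound the measured signal of a probe set, not the transcript itself where the probe set is dim. Of the members, 5 (UQCRB, COX6B2, COX7A1, COX7B2 and COX8C) had a mean below the median of all probe sets. The median of named probe sets was higher, at 4.62, and COX14, COX6A2, COX17, COX6C, COX7A2L, COX19, SDHAF4 and SDHAF3 also lay below it. From which mean a probe set is too dim to bound its transcript was not tested.

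**Figure D1:**
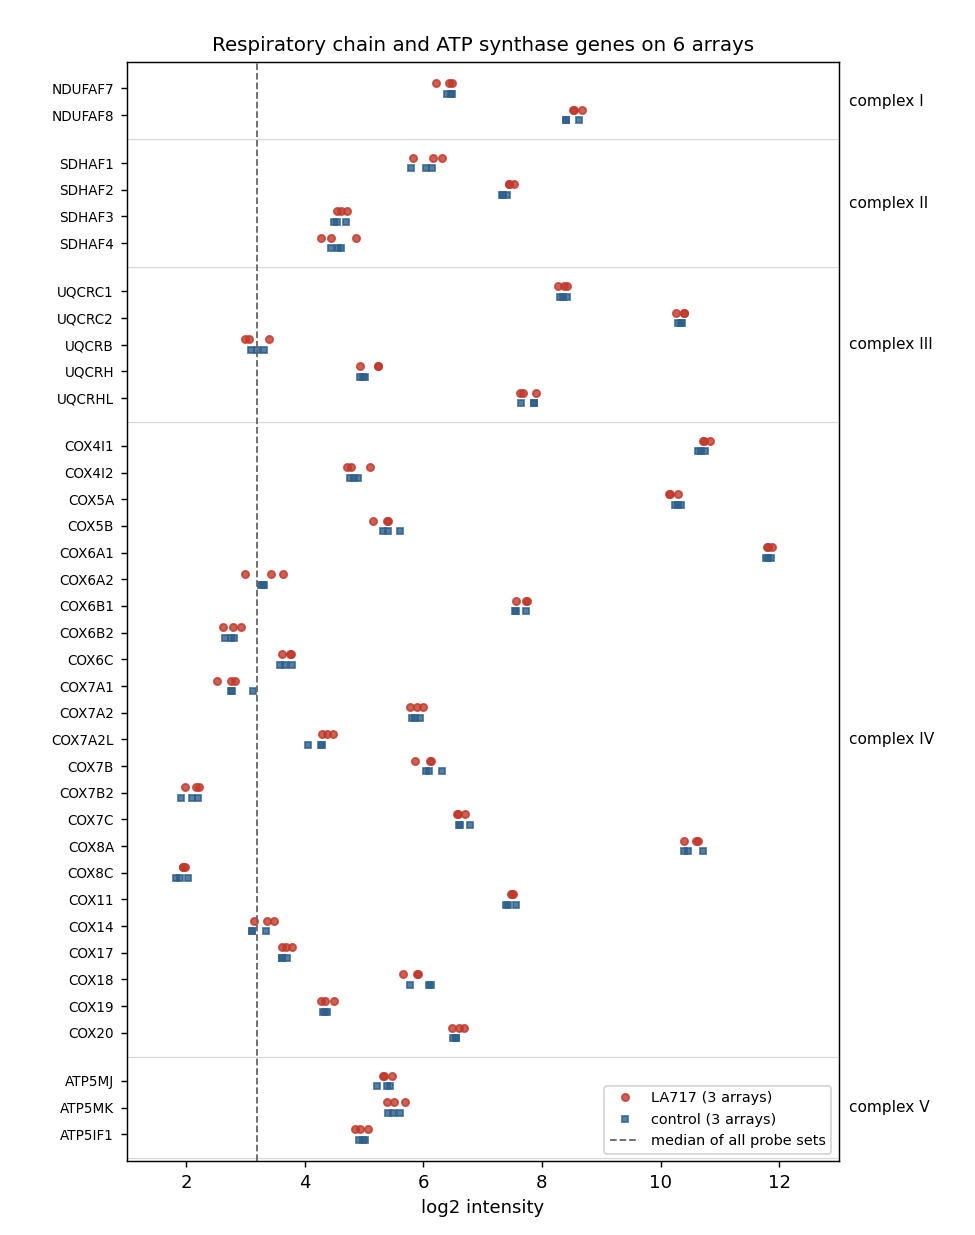
Log2 intensity (horizontal axis) of each of the 37 genes (rows, by complex) on each array, with LA717 as red circles above and control as blue squares below, and a dashed line at the median of all probe sets (3.19). Within a gene the 3 LA717 values and the 3 control values lie among each other except for SDHAF2; positions of different genes reflect different probes and are not levels to be compared.

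The array values of LA717 and control overlapped in 36 of 37 genes, and SDHAF2 was the exception, so that 1 of 37 (2.7%) had groups that did not overlap, against 11.1% of all probe sets. Leaving out 1 array raised that count to 6 without LA717 replicate 1, 2 without LA717 replicate 2, 5 without LA717 replicate 3, 6 without control replicate 1, 3 without control replicate 2 and 4 without control replicate 3. With 5 arrays the share of all probe sets whose groups do not overlap was between 20.01% and 21.95%, so each of these counts (5.41% to 16.2% of members) was below it. The sizes of the differences were also small beside those of all named genes, with a median of 0.0537 for the members and 0.0813 for all named genes. The median size was 0.0525 for genes of mitochondrial import and carriers, 0.0653 for mitochondrial ribosomal and 0.0977 for cytoplasmic ribosomal protein genes. For further assembly factors outside the set it was 0.0665. A difference of over 20% was measured for 0 members and for 879 of 14884 named genes. The within-group SD was likewise lower, with a median of 0.1044 for the members and 0.1276 for all named genes. It was 0.1107 for import and carrier genes, 0.1181 for mitochondrial ribosomal and 0.0705 for cytoplasmic ribosomal protein genes, and 0.1056 for the further assembly factors. Neither the small sizes nor the low SD were therefore particular to the members.

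**Figure D2:**
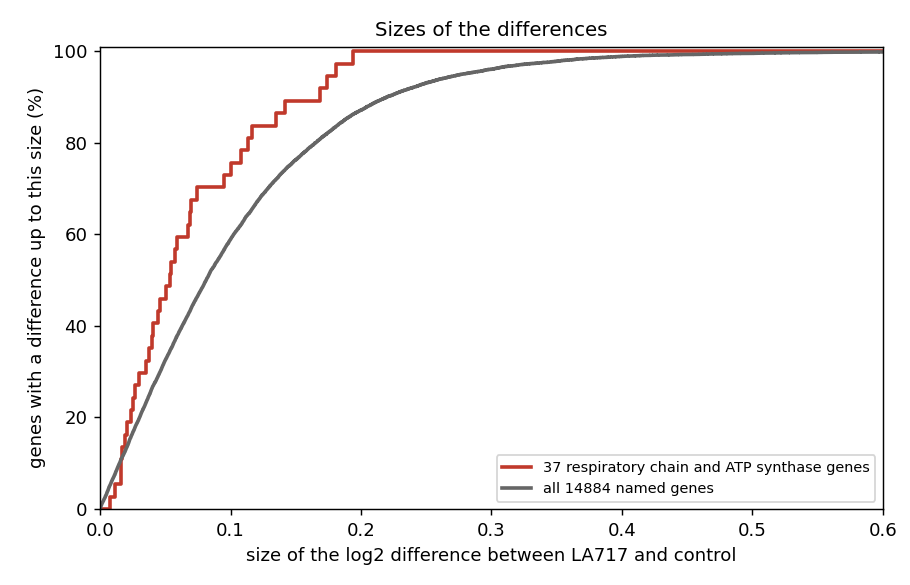
Share of genes (vertical axis, in percent) whose log2 difference between LA717 and control was no greater than the size on the horizontal axis, for the 37 members (red) and all 14884 named genes (grey). The red line lies above the grey one except at the smallest sizes and is complete below 0.20, with medians of 0.0537 for the members and 0.0813 for all named genes.

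Complex I was represented by NDUFAF7, which methylates a core subunit during assembly, and NDUFAF8, which stabilises another assembly factor. NDUFAF8 had 8.52, 8.54 and 8.67 on the LA717 arrays and 8.62, 8.40 and 8.41 on the control arrays. The 3 LA717 values were close together and control replicate 1 lay among them. The difference was 0.10 with a 95% interval from −0.13 to 0.33 (limma adjusted p = 0.94). NDUFAF7 had 6.22, 6.43 and 6.49 on the LA717 arrays and 6.49, 6.46 and 6.40 on the control arrays. Its lowest value was that of LA717 replicate 1, and the difference was −0.07 (interval −0.30 to 0.17).

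The complex II genes all encode assembly factors, and 3 of the 4 were higher in the mean with LA717, with a median difference of 0.0769. SDHAF2, which attaches the flavin cofactor to the catalytic subunit of succinate dehydrogenase, had 7.53, 7.44 and 7.45 with LA717 and 7.33, 7.35 and 7.41 in control. Every LA717 value lay above every control value, with control replicate 3 the nearest to them. The means were 7.48 ± 0.047 with LA717 and 7.36 ± 0.041 in control (log2 intensity, SD, n = 3 each), a 1.084-fold difference. Its log2 difference of 0.12 (SE 0.082) had an interval from −0.08 to 0.31 and did not pass the test, with a limma p of 0.199 and an adjusted p of 0.92, and it stayed between 0.09 and 0.14 with each array left out.

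SDHAF1, a factor for iron-sulfur cluster insertion, had 5.83, 6.16 and 6.31 with LA717 and 5.80, 6.14 and 6.04 in control. Replicate 1 was the lowest array of both groups, and the difference of 0.11 had an SE of 0.15. It ran between 0.00 and 0.24 with each array left out. SDHAF3, which acts on the maturation of the iron-sulfur subunit, had 4.54, 4.72 and 4.61 with LA717 and 4.54, 4.49 and 4.70 in control, a difference of 0.05 (interval −0.19 to 0.28). SDHAF4, which binds the flavin-bound catalytic subunit before assembly, had 4.45, 4.86 and 4.28 with LA717 and 4.57, 4.62 and 4.45 in control. The LA717 values of SDHAF4 enclosed all 3 control values, with SDs of 0.3 and 0.087 for LA717 and control, and the difference was −0.02.

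Complex III held UQCRC2 and UQCRC1, which with COX6A1 had the narrowest ranges over the 6 arrays. UQCRC2, a core protein of the complex, had 10.26, 10.39 and 10.39 with LA717 and 10.36, 10.35 and 10.29 in control. All 6 values lay within 0.12 of each other, and the difference was 0.01 with an interval from −0.19 to 0.21. UQCRC1, the other core protein, had 8.27, 8.38 and 8.42 with LA717 and 8.31, 8.35 and 8.43 in control, a difference of −0.01 (interval −0.22 to 0.20). UQCRH, the acidic hinge protein that helps cytochrome c and cytochrome c1 meet, had 5.24, 5.24 and 4.94 with LA717 and 4.93, 4.98 and 5.02 in control. LA717 replicates 1 and 2 stood above all control arrays while LA717 replicate 3 lay among them, and the difference of 0.17 (interval −0.09 to 0.42) had a limma p of 0.164 and an adjusted p of 0.92. Without LA717 replicate 3 the difference was 0.27, with an unadjusted limma p of 0.0289 and an adjusted p of 0.901.

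UQCRHL, a near copy of UQCRH, had 7.68, 7.90 and 7.63 with LA717 and 7.86, 7.65 and 7.86 in control, a difference of −0.05. Since the sequences are close, the probes of this pair could read each other's transcript, so neither gene's value is certain. UQCRB, the ubiquinone-binding protein gene, had 2.99, 3.06 and 3.39 with LA717 and 3.10, 3.32 and 3.20 in control. Its probe set was dim, was paired in the annotation with a non-coding transcript and differed by −0.06 (interval −0.36 to 0.24).

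**Figure D3:**
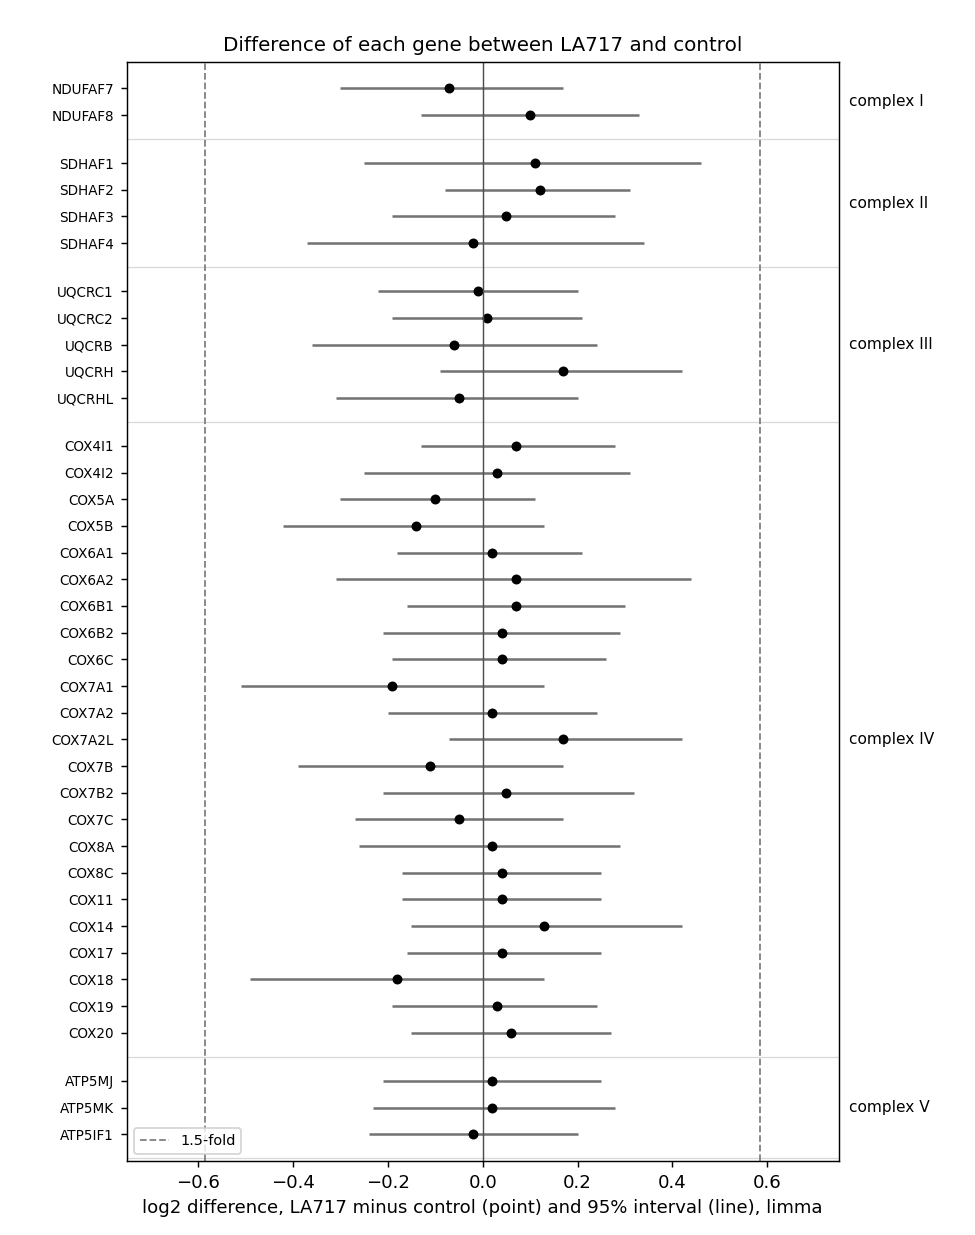
Log2 difference, LA717 minus control (horizontal axis, point) with its 95% interval from limma (line), for each of the 37 genes (rows, by complex), with dashed lines at a 1.5-fold difference either way. All 37 intervals include 0 and lie between the dashed lines, and the points lie between −0.19 and 0.17.

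Complex IV, cytochrome c oxidase, had 17 of 23 genes with a positive difference and a median of 0.0353. Among its 17 subunit genes 12 were positive and 5 negative, and among its 6 assembly factor genes 5 were positive. COX5A, a subunit on the matrix side, had 10.16, 10.15 and 10.29 with LA717 and 10.24, 10.29 and 10.35 in control. LA717 replicates 1 and 2 lay below all control arrays and LA717 replicate 3 did not, and the difference was −0.10 (interval −0.30 to 0.11, limma adjusted p = 0.932). COX5B, the zinc-binding subunit on the matrix side, had 5.15, 5.38 and 5.40 with LA717 and 5.32, 5.41 and 5.61 in control. Its groups overlapped too, and the difference was −0.14 (interval −0.42 to 0.13, limma adjusted p = 0.929).

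The paired isoforms were each compared between LA717 and control and not with their partner, for the lack of a common scale. COX4I1, found in most tissues, had 10.71, 10.74 and 10.84 with LA717 and 10.69, 10.63 and 10.75 in control, a difference of 0.07 (interval −0.13 to 0.28). COX4I2, the lung isoform, which is known to respond to low oxygen, had 4.71, 5.10 and 4.78 with LA717 and 4.77, 4.90 and 4.83 in control. LA717 replicate 2 was its highest array and LA717 replicate 1 its lowest, and the difference was 0.03 (interval −0.25 to 0.31).

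COX6A1, whose promoter was shown above, had 11.80, 11.81 and 11.88 with LA717 and 11.81, 11.77 and 11.87 in control, a difference of 0.02 (interval −0.18 to 0.21). A second probe set of that name had 1.57, 1.68 and 1.79 with LA717 and 1.62, 1.65 and 1.73 in control, a difference of 0.01. Probe set numbers run along the chromosomes, and for 37 of 38 probe sets of the members most of the 20 nearest named probe sets lay on the chromosome of the gene. The exception was the bright COX6A1 probe set, whose 20 neighbours were all on chromosome 6, whereas the gene and the 20 neighbours of its dim probe set are on chromosome 12. RefSeq lists 6 pseudogenes of COX6A1, 2 of them on chromosome 6, and which transcript the bright probe set reads was not tested.

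COX6A2, the heart and muscle isoform, had the widest range of the 37 genes (0.64), from values of 2.999, 3.443 and 3.639 with LA717 and 3.268, 3.295 and 3.316 in control. The LA717 values reached beyond the control values on both sides, with SDs of 0.33 and 0.024 for LA717 and control, so the difference of 0.07 was smaller than its SE of 0.16. COX7A1, the other heart and muscle isoform, was dim and had 2.82, 2.76 and 2.52 with LA717 and 2.78, 2.76 and 3.13 in control. The difference of −0.19 (interval −0.51 to 0.13, limma adjusted p = 0.92) was the greatest in size of the 37 and came with the lowest value on LA717 replicate 3 and the highest on control replicate 3. Of 7 muscle genes, 2 were named on a probe set, MB and DES, with means of 3.43 and 5.19 over 6 arrays. Their differences were −0.09 and 0.19.

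COX7A2, the partner of COX7A1 in most tissues, had 5.99, 5.90 and 5.78 with LA717 and 5.86, 5.81 and 5.95 in control, on a probe set paired in the annotation with a non-coding transcript. The difference was 0.02. COX7A2L, a relative that joins complexes III and IV into supercomplexes, had 4.30, 4.38 and 4.48 with LA717 and 4.30, 4.28 and 4.05 in control. The groups met at 4.30, control replicate 3 was the lowest array, and the 1.128-fold difference (0.17, interval −0.07 to 0.42) did not pass the test, with a limma p of 0.142 and an adjusted p of 0.92.

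Of the testis isoforms, COX6B2 had 2.92, 2.62 and 2.79 with LA717 and 2.80, 2.75 and 2.66 in control, and its partner COX6B1 had 7.57, 7.73 and 7.74 with LA717 and 7.54, 7.56 and 7.73 in control. Their differences were 0.04 and 0.07. COX7B2 had 2.17, 1.99 and 2.22 with LA717 and 2.10, 1.91 and 2.20 in control, and COX8C had 1.94, 1.94 and 1.98 with LA717 and 1.89, 2.03 and 1.83 in control. These 3 testis isoforms were all dim, at or below 2.92 on every array. COX7B2 and COX8C differed by 0.05 and 0.04, and whether these transcripts were present at all was not tested.

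COX7B, the partner of COX7B2, had 5.86, 6.12 and 6.13 with LA717 and 6.09, 6.05 and 6.32 in control, a difference of −0.11 (interval −0.39 to 0.17). COX8A, the partner of COX8C, had 10.63, 10.59 and 10.40 with LA717 and 10.40, 10.46 and 10.71 in control, a difference of 0.02 (interval −0.26 to 0.29). In COX8A the highest value was on control replicate 3, and the lowest, 10.40, was on both control replicate 1 and LA717 replicate 3. The small subunit genes COX6C and COX7C differed by 0.04 and −0.05, the first on a probe set between 3.59 and 3.78 on the 6 arrays and the second between 6.56 and 6.78. RefSeq names pseudogenes after 17 of the 37 members, 67 in all and 18 for COX6C, and how far their transcripts add to these signals was not tested.

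The assembly factors of complex IV include the copper proteins COX11, COX17 and COX19, which deliver copper to the catalytic core or pass it on, and they gave differences of 0.04, 0.04 and 0.03. COX11 had 7.51, 7.49 and 7.48 with LA717 and 7.57, 7.42 and 7.39 in control, with LA717 arrays within 0.03 of each other. COX14 and COX20 act on the mitochondrially made subunits 1 and 2 in their early assembly, and differed by 0.13 and 0.06. COX18, which inserts a part of subunit 2 into the membrane, had 5.65, 5.91 and 5.89 with LA717 and 6.10, 6.13 and 5.77 in control. Control replicates 1 and 2 stood above all LA717 arrays, while control replicate 3 lay among them, and the 0.882-fold difference (−0.18, interval −0.49 to 0.13) had a limma adjusted p of 0.92. Without control replicate 3 the difference was −0.30, with an unadjusted limma p of 0.044 and an adjusted p of 0.896.

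Complex V was close to 0 in each of its 3 genes. ATP5IF1, the inhibitor that keeps ATP synthase from running backwards when the membrane potential is lost, had 4.85, 4.93 and 5.06 with LA717 and 4.91, 5.02 and 4.98 in control. The difference was −0.02, with an interval from −0.24 to 0.20. ATP5MJ and ATP5MK, small membrane subunits at the base of the enzyme, had differences of 0.02 each, with intervals from −0.21 to 0.25 and from −0.23 to 0.28. ATP5MJ had 5.32, 5.47 and 5.33 with LA717 and 5.38, 5.22 and 5.44 in control, with the highest value on LA717 replicate 2 and the lowest on control replicate 2. ATP5MK had 5.39, 5.51 and 5.69 with LA717 and 5.41, 5.49 and 5.61 in control, with SDs of 0.15 for LA717 and 0.10 for control.

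The level of the set as a whole differed more among the arrays of a group than between the groups. Each gene was set against its own mean over 6 arrays, and the median of these deviations over the 37 members was −0.0475, 0.0172 and 0.0443 on LA717 replicates 1, 2 and 3. On control replicates 1, 2 and 3 it was −0.0461, −0.0186 and 0.0203. The groups overlapped, and LA717 held both the highest and the lowest array. In both groups the median rose from replicate 1 to replicate 3. LA717 replicate 3 was the highest array for 13 of 37 genes and LA717 replicate 1 the lowest for 12 of 37. For the 73 genes of mitochondrial ribosomal proteins, which build the ribosome that translates mitochondrial DNA products, the same LA717 replicates were the highest in 34 and the lowest in 35. The medians of mitochondrial ribosomal and of import and carrier genes also rose from replicate 1 to replicate 3 in both groups. Those of cytoplasmic ribosomal protein genes did so with LA717 but not in control. Over all named genes LA717 replicates 3 and 1 were the highest in 19.5% and the lowest in 22.0%. What set these arrays apart, and whether same-numbered arrays moved together in these sets, was not tested.

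**Figure D4:**
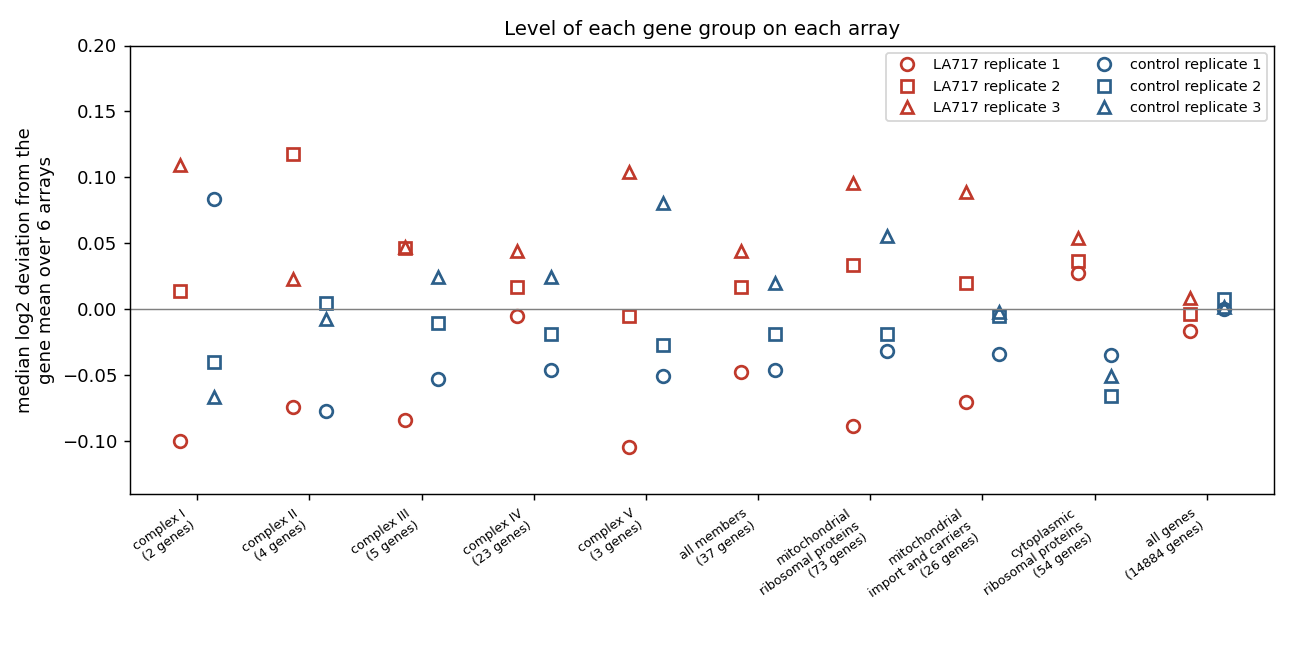
Median log2 deviation from each gene's mean over 6 arrays (vertical axis) for each gene group (horizontal axis, with its number of genes), with LA717 arrays in red at the left and control arrays in blue at the right; each symbol is 1 array. For the 37 members LA717 replicate 3 is the highest (0.0443) and LA717 replicate 1 the lowest (−0.0475), with control between them, and the mitochondrial ribosomal proteins run from −0.0883 to 0.0959 on the same arrays.

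None of the other genes of the pathway passed the test. Of 30 further assembly factors 26 were named on a probe set, 10 with a positive and 16 with a negative difference. Their median was −0.0051, and 0 passed the adjusted p or an unadjusted limma p under 0.05. Groups did not overlap in 4 of 26 (15.4%), against 11.1% of all probe sets and 2.7% of the members. These were COA1 (0.12), a complex IV assembly factor, LYRM7 (−0.22), and ATPAF1 (−0.11) and ATPAF2 (−0.14), which assemble the catalytic part of ATP synthase. The differences of PET100 and LYRM7 were greater in size than that of any member. PET100, a complex IV assembly factor, had 5.69, 6.15 and 5.71 with LA717 and 5.63, 5.11 and 5.94 in control, a difference of 0.29 with an SE of 0.22 (limma adjusted p = 0.923). Its low control replicate 2 lay apart from the other 5 arrays. LYRM7, which places the iron-sulfur protein in complex III, had 5.49, 5.40 and 5.55 with LA717 and 5.75, 5.55 and 5.80 in control, which met at 5.55 without overlapping before rounding, and its difference of −0.22 had a limma p of 0.0616 and an adjusted p of 0.92. UQCC2, also of complex III assembly, had means of 7.69 ± 0.11 with LA717 and 7.51 ± 0.10 in control (log2 intensity, SD, n = 3 each). CYC1, encoding cytochrome c1, differed by 0.02.

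Of 15 regulators of these genes and of mitochondrial DNA 5 were named on a probe set. Of the 5, 4 had a positive difference, with 0 past the adjusted p. NRF1 itself had 5.46, 5.75 and 5.54 with LA717 and 5.49, 5.48 and 5.89 in control, a difference of −0.03 (limma adjusted p = 0.992). ESRRA, an orphan nuclear receptor that acts on oxidative metabolism genes, had 5.80, 5.96 and 5.95 with LA717 and 5.80, 5.83 and 5.48 in control, a difference of 0.20 (limma adjusted p = 0.92). Genes encoded by mitochondrial DNA were not analysed here.

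The members' median of 0.0265 lay close to those of mitochondrial ribosomal and of import and carrier genes, while that of the further assembly factors was −0.0051. Positive differences made up 67.6% of members, 50.7% of mitochondrial ribosomal, 69.2% of import and carrier genes and 38.5% of the further assembly factors. The mitochondrial ribosomal protein genes were positive in 37 of 73, with a median difference of 0.0185, and 5 of 73 (6.85%) had groups that did not overlap, against 11.1% of all probe sets. Genes of mitochondrial import and of the carrier family were positive in 18 of 26, with a median of 0.0285, and 2 of 26 (7.69%) had groups that did not overlap. The genes of cytoplasmic ribosomal proteins were positive in 45 of 54, with a median of 0.0944, and 24 of 54 had groups that did not overlap, a share of 44.4% that was above the 11.1% of all probe sets. In each of these families 0 genes passed the adjusted p by limma, and the differences between the families were not tested. At an unadjusted limma p under 0.05 there were 0 of 73, 1 of 26 and 8 of 54 genes in the order given, against 5.31% of all probe sets.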

How the data were processed

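Total RNA of A549 cells, 3 samples with LA717 and 3 with Milli-Q water, was hybridised to Human Gene 2.0 ST arrays, as the study's methods state, whereas the labels name a kit for 3' expression arrays. The deposited log2 values, 1 per probe set and array, were made by the authors with Affymetrix Expression Console, per the submitters' processing notes. Its version, the summarisation and the normalization were not given in the sources used here, and no step was added.

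Groups and replicate numbers came from the titles. The difference was fitted for each probe set on all 6 arrays with limma (version 3.58.1, R 4.3.3), using lmFit and eBayes without a block and two-sided, with Benjamini-Hochberg adjustment over all 53617 probe sets. Of these 16098 named 1 gene, and the other 37519 named none or more than 1 and were not used to choose genes. Control probe sets are not marked and were kept. The fit was tested on simulated data. Over all probe sets, same-numbered arrays of the groups deviated together with r of 0.024, 0.0149 and 0.0329, so numbers were not treated as pairs. This r was not computed for the members alone, and a replicate block was fitted as an alternative. Genes named in full were the paired isoforms, core subunits, complex II genes, the inhibitor, those whose groups did not overlap and up to 3 per further list by size of difference; other members were added after their values were seen. The members and lists were chosen with earlier results of these data known. Promoter letters were searched in the 250 bases before each RefSeq gene start (GRCh38.p14). Gene names came from the platform annotation, updated through RefSeq. Python 3.11.15, pandas 2.3.3 and matplotlib 3.10.9 were used.

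Alternatives were quantile normalization, array quality weights, centring on the median, a trend with intensity, robust variance, a replicate block, a filter on dim probe sets, a test of probe sets naming 1 gene only, averaging a gene's probe sets, and omission of each array.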

Additional observations from a re-analysis of the deposited data

How the results depend on the processing

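The number of members past the adjusted p was 0 under each of the 15 alternatives, among them the replicate block, with which 25 members had a positive difference and 36 an interval within 1.5-fold. When each array was omitted in turn, the number of members whose groups did not overlap ran from 2 to 6 (1 with all arrays), since fewer arrays separate more easily, and the number with an unadjusted limma p under 0.05 ran from 0 to 1 (0 with all arrays). The number of positive differences ran from 19 to 27 and the members' median from 0.0021 to 0.0444. Leaving out dim probe sets removed 5 members, and 32 remained. Of 222 member differences with 1 array left out, 188 kept their sign and 34, in 20 genes, did not, and 0 passed the adjusted p. The ranges of those genes were −0.08 to 0.03 for ATP5IF1, −0.04 to 0.07 for ATP5MJ, −0.06 to 0.10 for ATP5MK, −0.03 to 0.08 for COX19, −0.09 to 0.11 for COX4I2, −0.01 to 0.04 for COX6A1, −0.07 to 0.25 for COX6A2, −0.03 to 0.12 for COX6B2 and COX7B2, −0.01 to 0.09 for COX6C and COX8C, −0.03 to 0.07 for COX7A2, −0.09 to 0.01 for COX7C, −0.04 to 0.11 for COX8A, −0.12 to 0.01 for NDUFAF7, 0.00 to 0.11 for SDHAF3, −0.18 to 0.11 for SDHAF4, −0.18 to 0.02 for UQCRB, −0.04 to 0.04 for UQCRC1 and −0.01 to 0.05 for UQCRC2. Of 328 differences under the other 9 alternatives 324 kept their sign. The exceptions were UQCRC1, at 0.00 with array quality weights and with quantile normalization, and UQCRC2 and COX6A1, at −0.01 each with quantile normalization. The cause was not tested. The table holds no signal over background, so for the 5 dim members the values set no limit on the transcript. How far the values limit it, for these or for the other members of low mean, was not tested.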

Other observations

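Of the names left out of the set 0 probe sets passed the adjusted p, or an unadjusted p under 0.05, by limma. The pseudogene UQCRBP1 had 2.37, 2.67 and 2.75 with LA717 and 2.43, 2.51 and 2.60 in control, a difference of 0.09 (limma adjusted p = 0.959). COX10-DT, a transcript that diverges from the heme synthesis gene COX10, had 5.44, 5.41 and 5.38 with LA717 and 5.24, 5.58 and 5.44 in control, a difference of −0.01. NDUFB2-AS1 differed by −0.06. The 2 probe sets of NDUFA6-DT gave −0.20, with groups that did not overlap on a dim probe set, and 0.04. The first of these was greater in size than the difference of any member.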
